A study of Bos taurus with 6 samples.

Results

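The cytosolic HSP70 and HSP90 chaperones are described here by 7 genes, HSPA1A, HSPA8, HSPA2, HSPA4, HSPH1, HSP90AA1 and HSP90AB1, found by name among the 9537 genes measured. RNA sequencing was done on in vitro produced bovine blastocysts grown in SOFaaci medium, with 3 libraries of embryos of low cryosurvival (coded NV in the titles) and 3 of high cryosurvival (coded V). Cryosurvival is the ability to live on once vitrified, that is, cooled so fast that water turns to glass without ice. The comparison asks which transcripts differ between embryos of low and high cryotolerance. The labels do not explain the codes, do not place the RNA sampling before or after vitrification, and do not say whether replicates came from separate cultures. The p-values therefore measure the spread between these libraries, which may be technical.

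HSP70 proteins bind exposed hydrophobic stretches of unfolded proteins and release them in a cycle driven by ATP, with J-domain proteins starting the cycle and nucleotide exchange factors ending it. HSP90 proteins take over partly folded clients, such as kinases and steroid receptors, and their cycle is timed by co-chaperones. In mammalian cells each family has constitutive members, made at all times, and members induced by heat shock factor when proteins misfold. HSPA1A, HSPH1 and HSP90AA1 were treated as inducible, and HSPA8, HSPA2, HSPA4 and HSP90AB1 as constitutive, a division known from human and mouse cells. In mouse embryos, HSP70 transcripts are among the first made when the embryonic genome becomes active.

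The libraries held 14651477 to 19467022 reads in the table, and values are in CPM, read counts relative to a library size that the authors had adjusted. Low library 2 stood apart from the others. Its index of long against short messenger RNAs, the difference between the median log2(CPM + 1) of the 2 kinds, was -2.42, against -0.23 and -0.56 in low libraries 1 and 3 and -1.11 to -0.85 in the high libraries. For the 7 genes and for the lists of related genes, calls that changed without this library are given beside the result, and the part of message length in the results was not tested.

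The blastocyst identity was checked with markers of its lineages. The 7 measured trophectoderm markers, of 9 listed, summed to 26394 to 36403 CPM in low and 30946 to 34175 CPM in high libraries, most of it KRT8 and KRT18. All 7 had negative log2 differences of low minus high (median -0.25, and -0.38 without low library 2), and for 3 of them, GATA2 (-0.41), TFAP2A (-0.67) and TFAP2C (-0.12), the low libraries lay below the high ones, beside 10.6% of all genes. Limma called 0 of the 7 with all libraries and 1, GATA2, without low library 2 (adjusted p = 0.0333). For this and the other marker calls below, limma without low library 2 called 8.15% of all genes higher and 5.48% lower in low embryos. The 5 inner cell mass markers, of 6 listed, summed to 929 to 1165 CPM in low and 959 to 1054 CPM in high libraries, most of it POU5F1. NANOG differed most, averaging 16.2 ± 5.20 CPM in low embryos and 38.7 ± 8.15 CPM in high embryos without overlap (SD, n = 3 each, log2 difference -1.23, limma adjusted p = 0.164, and 0.0345 without low library 2). The groups overlapped for the other 4, of which LIN28A was called higher in low embryos without low library 2 (log2 difference 0.96, adjusted p = 0.0277). The 6 hypoblast markers, of 7 listed, summed to 1482 to 2985 CPM in low and 2211 to 2887 CPM in high libraries, most of it FN1. COL4A1 was called higher in low embryos by limma without low library 2 (log2 difference 0.88, adjusted p = 0.0203). Of the 8 cumulus and granulosa cell markers 3 were measured, at a sum of 23.0 to 27.8 CPM in low and 23.9 to 26.8 CPM in high libraries, and INHBA, at 1.65 to 4.13 CPM in low and 2.73 to 3.33 CPM in high libraries, was called lower in low embryos without low library 2 (adjusted p = 0.0289). With the index of long against short messages as covariate, limma called GATA2, TFAP2A and NANOG lower and COL4A1 higher in low embryos. That fit called 6.69% of all genes higher and 5.93% lower. The authors' deposited table called 1 of the 5 inner cell mass markers and 0 of the trophectoderm and hypoblast markers, beside 0.912% of all genes higher and 0.283% lower. Listed markers without a row in the table are not analysed here. The groups also did not overlap for the hypoblast marker GATA4, higher in low embryos (log2 difference 0.47, limma adjusted p = 0.355). Nor did they for the granulosa marker FSHR, lower in low embryos (7.06 to 8.14 CPM in low and 8.63 to 9.04 CPM in high libraries). GATA2, TFAP2A, TFAP2C, NANOG, FSHR and GATA4 thus separated the same 3 libraries from the other 3 as HSPA1A and HSPA2 did. The part of these cell types in the results was not tested, and in RNA of whole embryos fewer cells of a type and less RNA per cell cannot be told apart.

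HSPA1A transcripts were about 1.89 times as abundant in low as in high cryosurvival embryos, and HSPA2 transcripts 0.704 times. The other 5 genes had ratios of low over high between 1.01 and 1.29. None of the 7 passed limma at an adjusted p of 0.05 with all 6 libraries. The same test called 0% of all genes, and voom, run on reads recovered from the CPM, called 0 as well. At an unadjusted p below 0.05, 2 of the 7 passed, HSPA1A higher and HSPA2 lower in low cryosurvival embryos, where 6.27% of all genes were higher and 5.7% lower. The 3 low libraries lay above the 3 high ones for 3 of the 7, HSPA1A, HSPH1 and HSP90AB1, where 10.4% of all genes did so. They lay below for 1, HSPA2, where 10.6% of all genes did. The median log2 difference of the 7 genes was 0.15, beside 0.0002 for all genes.

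**Figure D1:**
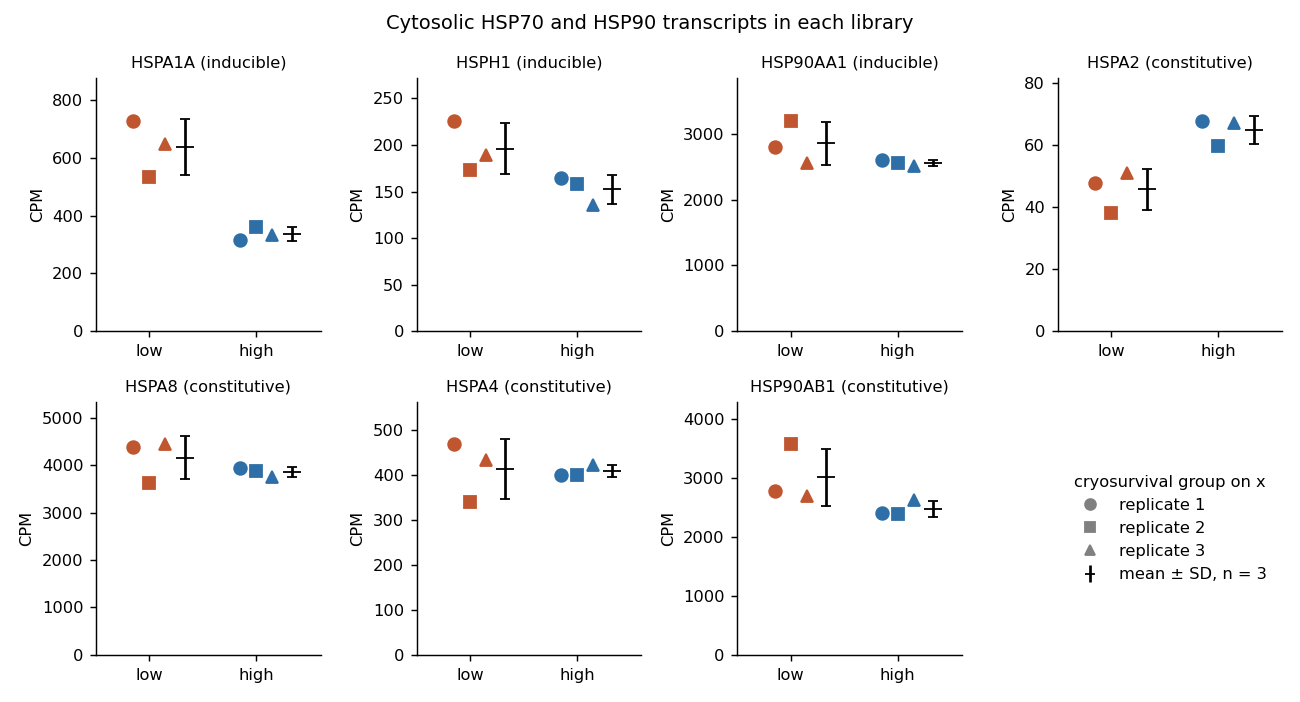
CPM of the 7 chaperone genes (y axes from 0) in the 3 low and the 3 high cryosurvival libraries (x axis), with the mean and SD of each group beside the points. HSPA1A, HSPH1 and HSP90AB1 had all 3 low libraries above the high ones, HSPA2 had them below, and the groups overlapped for HSP90AA1, HSPA8 and HSPA4.

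Among the inducible genes, HSPA1A encodes the main stress-inducible HSP70 of the cytosol. It was at 729, 534 and 648 CPM in low cryosurvival libraries 1, 2 and 3, against 314, 361 and 334 CPM in high libraries 1, 2 and 3. The lowest low library was well above the highest high library, and low library 2 was the lowest of its group. The means were 637 ± 98.0 CPM in low and 336 ± 23.3 CPM in high embryos (SD, n = 3 each), on 5613 to 14611 reads per library. The log2 difference was 0.91 (SE 0.15, 95% interval 0.55 to 1.27, limma adjusted p = 0.142). HSPA1A ranked 38th of all genes by its limma p. In the authors' deposited table HSPA1A was called, at an adjusted p of 0.003 and a log2 fold of 0.92 (its sign changed here so that it reads low over high), and no other of the 7 was. That table called 0.912% of all genes as higher in low embryos. Without low library 2 the limma log2 difference was 1.03 (adjusted p = 0.0113), and with the length index as covariate 0.93 (adjusted p = 0.00903). Over all alternatives the adjusted p of HSPA1A ranged from 0.00903 to 0.597. HSPA1A has a near-identical copy in mammals, and the RefSeq gene table of assembly ARS-UCD2.0 lists HSPA1B and HSPA2 among the synonyms of HSPA1A, so its row may hold reads of more than one gene. HSPA1L is its neighbour there, and it is not analysed here.

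HSPH1, also called HSP110, is a large relative of HSP70 that acts as its nucleotide exchange factor and helps dissolve aggregates. Its values were 226, 173 and 189 CPM in low libraries 1, 2 and 3, against 165, 158 and 135 CPM in high libraries 1, 2 and 3. The groups did not overlap, but low library 2 and high library 1 were only 8.33 CPM apart. The log2 difference of HSPH1 was 0.36 (SE 0.15, 95% interval -0.01 to 0.72, limma adjusted p = 0.425). It was 0.44 without low library 2 (adjusted p = 0.0649).

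HSP90AA1 encodes the inducible HSP90 of the cytosol. Its transcripts were at 2802, 3205 and 2560 CPM in low libraries 1, 2 and 3, against 2601, 2555 and 2513 CPM in high libraries 1, 2 and 3. Low library 3 lay within the range of the high libraries, which were within a narrow band (44.4 CPM SD around a mean of 2556 CPM). With means of 2856 ± 325 CPM in low and 2556 ± 44.4 CPM in high embryos (SD, n = 3 each), the log2 difference was 0.15 (SE 0.13, 95% interval -0.15 to 0.46, limma adjusted p = 0.755). Low library 2 supplied much of it, since the difference without that library was 0.07 (adjusted p = 0.619).

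Among the constitutive genes, HSPA8 encodes HSC70, the HSP70 of unstressed cells, which also uncoats clathrin vesicles and delivers proteins to chaperone-mediated autophagy. HSPA8 was at 4387, 3632 and 4441 CPM in low libraries 1, 2 and 3, against 3945, 3880 and 3743 CPM in high libraries 1, 2 and 3. Low library 2 was the lowest of all 6, while low libraries 1 and 3 were the highest. The log2 difference was 0.10 (SE 0.13, 95% interval -0.21 to 0.41, limma adjusted p = 0.863), and 0.20 without low library 2 (adjusted p = 0.148).

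HSP90AB1 encodes the constitutive HSP90 of the cytosol. In mammals HSPA8, HSP90AA1 and HSP90AB1 have processed pseudogenes or close paralogs, and how reads shared with them were counted is not known here. It was at 2790, 3576 and 2689 CPM in low libraries 1, 2 and 3, against 2401, 2396 and 2629 CPM in high libraries 1, 2 and 3. The groups did not overlap, with low library 3 only 60.3 CPM above high library 3 and low library 2 far above the rest. The log2 difference of 0.28 (SE 0.15, 95% interval -0.08 to 0.63, limma adjusted p = 0.564) was 0.15 without low library 2 (adjusted p = 0.289).

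HSPA4, a member of the HSP110 branch that exchanges nucleotide on HSP70, was at 469, 340 and 434 CPM in low libraries 1, 2 and 3. It was at 400, 401 and 423 CPM in high libraries 1, 2 and 3. Low library 2 was below all high libraries and the other 2 low libraries were above them. The log2 difference was 0.01 (SE 0.15, 95% interval -0.35 to 0.37, limma adjusted p = 0.991), and its sign depended on single libraries: it was 0.14 without low library 2 (adjusted p = 0.289) and -0.09 without low library 1 (adjusted p = 0.862). HSPA4 and HSPH1 belong to the same branch, and their groups overlapped for HSPA4 and did not for HSPH1.

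HSPA2, known in mouse for its part in male meiosis and sperm formation, was the member with a negative difference. It was at 47.8, 38.2 and 51.1 CPM in low libraries 1, 2 and 3, against 67.9, 59.7 and 67.2 CPM in high libraries 1, 2 and 3. The highest low library was below the lowest high library. The means were 45.7 ± 6.68 CPM in low and 64.9 ± 4.54 CPM in high embryos (SD, n = 3 each), on 509 to 1212 reads per library, the fewest of the 7. The log2 difference was -0.51 (SE 0.15, 95% interval -0.86 to -0.15, limma adjusted p = 0.26). Without low library 2 it was -0.39 (adjusted p = 0.0488), and with the length index -0.49 (adjusted p = 0.0267). Over all alternatives the adjusted p of HSPA2 ranged from 0.0267 to 0.742. In the authors' deposited table HSPA2 had an adjusted p of 0.337. Of the 6 sperm and testis markers 1 was measured, the sperm transition protein gene TNP1, at 1.15 to 2.85 CPM in low and 1.63 to 3.08 CPM in high libraries. The part of sperm RNA in the HSPA2 values was not tested.

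**Figure D2:**
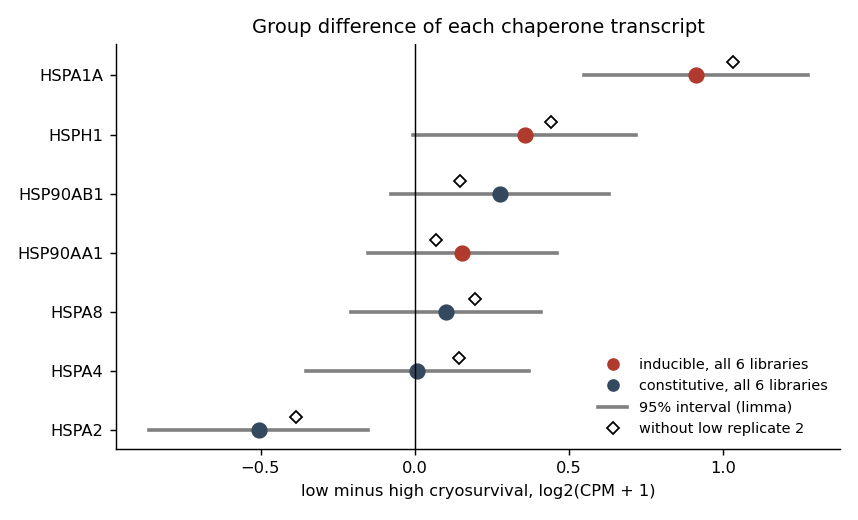
Log2 difference of low minus high cryosurvival on log2(CPM + 1) (x axis) for each gene (y axis), with limma's 95% interval and the value without low library 2 as a diamond. The interval lay above 0 for HSPA1A and below 0 for HSPA2, and it crossed 0 for the other 5 genes.

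Among the 7 genes, low library 2 moved in opposite directions for the 2 families. Set against the mean of low libraries 1 and 3, it was lower by 0.25 to 0.41 on the log2(CPM + 1) scale for all 5 genes of the HSP70 and HSP110 families (HSPH1 -0.25, HSPA8 -0.28, HSPA2 -0.36, HSPA1A -0.36 and HSPA4 -0.41). It was higher for both HSP90 genes, by 0.26 for HSP90AA1 and by 0.38 for HSP90AB1. The relatives of the endoplasmic reticulum did not follow this split, at 0.07 for HSPA5 and -0.08 for HSP90B1 in the same comparison. The share of all genes moved this far in low library 2 was not computed. Without that library 5 of the 7 genes had both low libraries above the 3 high ones, HSPA2 had them below, and HSP90AA1 overlapped. Of all genes, 27.6% lay above in that way and 27.5% below. In that comparison limma called 2 of the 7, HSPA1A higher and HSPA2 lower, beside 8.15% of all genes higher and 5.48% lower. With the length index as covariate the same 2 of the 7 were called, beside 6.69% of all genes higher and 5.93% lower. The 2 comparisons share libraries and are not independent of each other. The index was -2.42 in low library 2 and -1.11 to -0.23 in the others, so as a covariate it mostly sets that library apart. A gene called in both comparisons, here or in the lists below, therefore does not have 2 separate results.

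**Figure D3:**
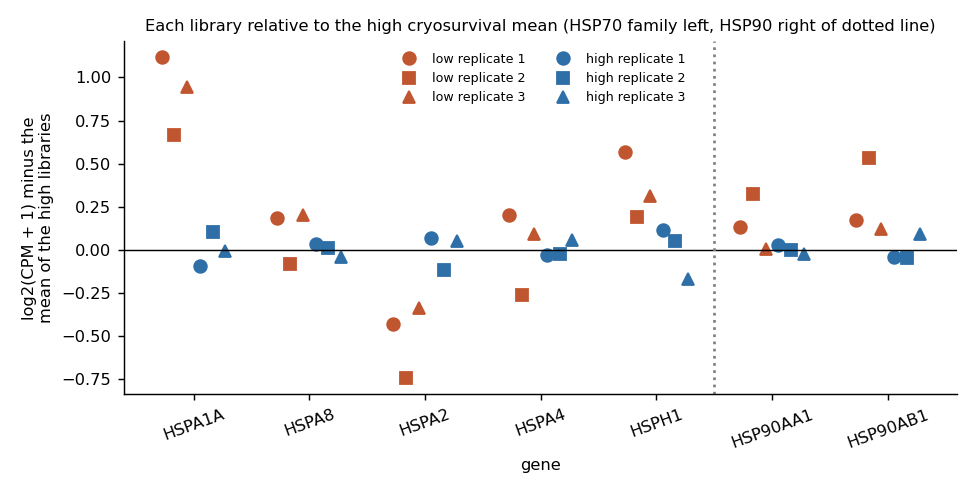
Log2(CPM + 1) of each library minus the mean of the 3 high libraries (y axis) for each gene (x axis), HSP70 family to the left and HSP90 genes to the right of the dotted line. Low library 2 (orange squares) was the lowest low library for all 5 genes on the left and the highest for both on the right.

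Inducible and constitutive genes were compared within libraries, where the scaling of the library cancels out of a ratio. Because longer messages give more reads and message lengths were not used here, the size of a ratio between 2 genes is not interpreted and only its difference between libraries is. In the HSP70 pair, HSPA1A made up 14.3%, 12.8% and 12.7% of the summed CPM of HSPA1A and HSPA8 in low libraries 1, 2 and 3. The share was 7.38%, 8.51% and 8.19% in high libraries 1, 2 and 3, and the groups did not overlap. On the log2 scale the ratio of HSPA1A to HSPA8 was -2.71 ± 0.11 in low and -3.52 ± 0.12 in high embryos (SD, n = 3 each), a difference of 0.81 (exact two-sided permutation test, p = 0.1, adjusted over the 2 ratios 0.2). This p is the smallest that 3 libraries against 3 can give. Low library 2 did not stand apart here, at -2.76, beside -2.59 and -2.78 in low libraries 1 and 3.

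In the HSP90 pair, HSP90AA1 made up 50.1%, 47.3% and 48.8% of the summed CPM of HSP90AA1 and HSP90AB1 in low libraries 1, 2 and 3. Its share was 52.0%, 51.6% and 48.9% in high libraries 1, 2 and 3, so low library 1 lay within the range of the high libraries. The log2 ratio was -0.07 ± 0.08 in low and 0.05 ± 0.10 in high embryos (SD, n = 3 each), a difference of -0.12 (exact two-sided permutation test, p = 0.2, adjusted over the 2 ratios 0.2). The inducible partner had the larger share in low embryos in the HSP70 pair and the smaller mean share in the HSP90 pair. Neither ratio could reach a p of 0.05 in this design, and the difference between the pairs was not tested.

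**Figure D4:**
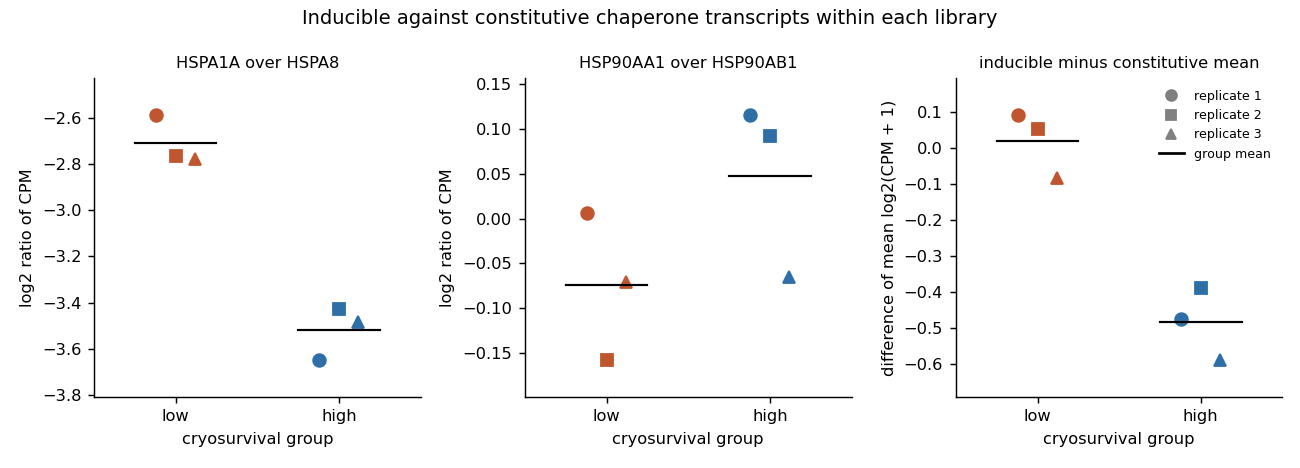
Log2 ratio of CPM for HSPA1A over HSPA8 and for HSP90AA1 over HSP90AB1, and the mean log2(CPM + 1) of the 3 inducible minus that of the 4 constitutive genes (y axes, not starting at 0), in the low and high cryosurvival libraries (x axis), with group means as lines. The groups were apart for the first and the third panel and overlapped in the second.

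Over the 3 inducible genes the mean log2(CPM + 1) minus that over the 4 constitutive genes was 0.09, 0.05 and -0.08 in low libraries 1, 2 and 3, against -0.47, -0.39 and -0.59 in high libraries 1, 2 and 3. The difference between the group means was 0.50. It rested on HSPA1A and HSPA2, the genes with the largest differences of either sign. With both left out, a selection made with the values known, the difference was 0.13 and the groups overlapped, at -1.31 to -1.14 in low and -1.46 to -1.25 in high libraries. The division by inducibility did not order the genes by their difference, since constitutive HSP90AB1 (0.28) stood above inducible HSP90AA1 (0.15).

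The summed CPM of the 7 genes was 11451, 11498 and 11013 in low libraries 1, 2 and 3, against 9894, 9810 and 9845 in high libraries 1, 2 and 3. The low sums all lay above the high ones, beside 10.4% of single genes that did so. Low library 2, with its lower HSPA8 and higher HSP90 values, had a sum close to that of low library 1. Without HSPA1A the sums were 10722, 10964 and 10365 CPM in low and 9580, 9449 and 9511 CPM in high libraries. HSPA1A made up 6.37%, 4.65% and 5.89% of the sum in low and 3.18%, 3.68% and 3.39% in high libraries.

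None of the 15 HSP90 co-chaperones passed limma in the comparison of all 6 libraries. Of them 7 had positive and 8 negative differences, their median log2 difference was -0.01, and for 0 of 15 the groups did not overlap, beside 21% of all genes. STIP1, the adaptor that hands clients from HSP70 to HSP90, averaged 688 ± 154 CPM in low embryos and 748 ± 31.9 CPM in high embryos (SD, n = 3 each, limma adjusted p = 0.864). Its log2 difference was -0.15 with all libraries and 0.05 without low library 2. NUDC, which stabilises HSP90 clients, averaged 719 ± 154 CPM in low embryos, and the high libraries, from 719 to 727 CPM, lay within the low range. FKBP5, an immunophilin that lowers steroid receptor activity, had the smallest p among them, with 20.5 ± 5.85 CPM in low embryos and 15.2 ± 2.69 CPM in high embryos (limma adjusted p = 0.643). Without low library 2 FKBP5 was the 1 co-chaperone called, higher in low embryos (adjusted p = 0.0374), and with the length index 0 of the 15 were called. The client adaptor SUGT1 averaged 78.1 ± 13.4 CPM in low embryos and 67.8 ± 2.63 CPM in high embryos.

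The 14 HSP70 cofactors also had 0 called members by limma, with 9 positive and 5 negative differences and a median of 0.05. Without low library 2 limma called 2 higher and 1 lower in low embryos, beside 8.15% and 5.48% of all genes, and with the length index 2 higher and 0 lower, beside 6.69% and 5.93%. The authors' deposited table called 1 of the 14, BAG3, higher in low embryos, beside 0.912% of all genes. The low libraries lay above the high ones for 3 of them and below for 1, beside 10.4% and 10.6% of all genes. BAG3, a nucleotide exchange factor induced by stress that links HSP70 to autophagy, averaged 90.3 ± 16.6 CPM in low embryos and 51.1 ± 3.24 CPM in high embryos (SD, n = 3 each), a log2 difference of 0.79 (SE 0.17, limma adjusted p = 0.167). BAG3 was called when low library 2 was left out (0.96, adjusted p = 0.0113), and also with the length index (0.82, adjusted p = 0.00903). DNAJB1, the J-domain partner of inducible HSP70, was at 210, 203 and 201 CPM in low libraries 1, 2 and 3, against 141, 156 and 151 CPM in high libraries 1, 2 and 3. Its log2 difference was 0.45 (SE 0.11, limma adjusted p = 0.204), and low library 2 lay between its replicates. DNAJB1 was called when low library 2 was left out (0.46, adjusted p = 0.0307), and also with the length index (0.45, adjusted p = 0.0203). ST13, also called HIP, which steadies HSP70 in its client-bound state, averaged 449 ± 5.62 CPM in low embryos and 499 ± 4.43 CPM in high embryos, a log2 difference of -0.15 (SE 0.11, limma adjusted p = 0.684). Both groups were tight and did not overlap. BAG6, which guards new membrane proteins, averaged 502 ± 134 CPM in low embryos and 532 ± 59.2 CPM in high embryos, with a log2 difference of -0.12 that was 0.13 without low library 2. The cofactor called lower without that library, BAG2, named after its value was seen, had a log2 difference of -0.22 with all libraries and -0.36 without it (adjusted p = 0.0394). DNAJA1, the fourth without overlap and named after its value was seen, had a log2 difference of 0.26 (limma adjusted p = 0.445).

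Of heat shock factors and their regulators 4 of 5 listed genes were measured, and all 4 had negative differences with overlapping groups (median log2 difference -0.13, 0 called by limma). HSF1, the master factor of the heat shock response, averaged 189 ± 18.4 CPM in low embryos and 198 ± 9.67 CPM in high embryos (SD, n = 3 each, limma adjusted p = 0.919), and its log2 difference of -0.07 was 0.0065 without low library 2. HSBP1, which binds HSF1, averaged 133 ± 34.1 CPM in low embryos and 152 ± 12.7 CPM in high embryos, and without low library 2 it was called lower in low embryos (adjusted p = 0.0428). HSF4 averaged 2.21 ± 0.821 CPM in low embryos and 2.66 ± 0.842 CPM in high embryos. These are transcript levels, and heat shock factor activity is set largely by changes in the protein.

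Other known targets of heat shock factor were measured for 15 of 16 listed genes. Among them the 3 low libraries lay above the 3 high ones for 6 and below for 0, beside 10.4% and 10.6% of all genes, and the groups overlapped for 9. Limma called 0 of them with all libraries. It called 5 without low library 2, each higher in low embryos, beside 8.15% of all genes, and 4 with the length index, each higher, beside 6.69%. The authors' deposited table called 3, each higher, beside 0.912% of all genes. The median log2 difference was 0.05 with all libraries and 0.13 without low library 2. CRYAB, a small heat shock protein, had the largest difference, at 10.3, 12.8 and 8.32 CPM in low libraries 1, 2 and 3, against 3.87, 2.78 and 4.83 CPM in high libraries 1, 2 and 3 (log2 difference 1.25, SE 0.21, limma adjusted p = 0.142). CRYAB was called when low library 2 was left out (1.11, adjusted p = 0.0228), and also with the length index (1.23, adjusted p = 0.0131). The ubiquitin gene UBB averaged 1145 ± 215 CPM in low embryos and 1154 ± 102 CPM in high embryos (SD, n = 3 each). Besides CRYAB and BAG3, the 6 held DNAJB1, DNAJA1, the small heat shock protein gene HSPB8 (log2 difference 0.93, limma adjusted p = 0.241) and SERPINH1, the collagen chaperone of the endoplasmic reticulum (0.69, adjusted p = 0.335), the last 2 named after their values were seen. HSPB8 (1.24, adjusted p = 0.0113) and SERPINH1 (0.88, adjusted p = 0.0396) were called without low library 2, and with the length index HSPB8 was (adjusted p = 0.00977). BAG3, DNAJA1 and DNAJB1 are also on the cofactor list, and STIP1, AHSA1, CHORDC1 and FKBP4 on the co-chaperone list.

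Among other HSP70 and HSP90 family genes 8 of 13 listed were measured, 0 were called by limma with all libraries and the median log2 difference was 0.14. With low library 2 left out limma called 4, each higher in low embryos, beside 8.15% of all genes, and the median was 0.32. With the length index it called 3, each higher, beside 6.69% of all genes, and the authors' deposited table called 2, each higher, beside 0.912%. The low libraries lay above the high ones for 3 of the 8 and below for 0, beside 10.4% and 10.6% of all genes, and these 3 all act in the endoplasmic reticulum. HSPA5, its HSP70, averaged 1872 ± 60.4 CPM in low embryos and 1099 ± 25.5 CPM in high embryos (SD, n = 3 each, log2 difference 0.77, limma adjusted p = 0.124). HSP90B1, its HSP90, averaged 1870 ± 66.6 CPM in low embryos and 1267 ± 49.6 CPM in high embryos (log2 difference 0.56, limma adjusted p = 0.164). Both were called when low library 2 was left out, HSPA5 at 0.75 (adjusted p = 0.0128) and HSP90B1 at 0.59 (adjusted p = 0.0188). With the length index both were called as well (adjusted p = 0.00903 for HSPA5 and 0.0123 for HSP90B1). The third, HYOU1, an HSP110 relative named after its value was seen, had a log2 difference of 0.77 (limma adjusted p = 0.236), and was called when low library 2 was left out (adjusted p = 0.0113), and also with the length index (0.81, adjusted p = 0.00903). HSPA13, also named after its value was seen, was called without low library 2 (0.63, adjusted p = 0.0166), while its groups overlapped with all libraries (0.23, adjusted p = 0.884). HSP90B1 in low library 2 was close to low libraries 1 and 3, at 1805 CPM beside 1938 and 1866 CPM. HSPA5 was as well, at 1929 CPM beside 1879 and 1808 CPM. This closeness did not extend to HYOU1 and HSPA13, which both had larger log2 differences without low library 2 than with all libraries. For these genes low library 2 thus lay below the mean of low libraries 1 and 3. The mitochondrial genes HSPA9 and TRAP1, also named after their values were seen, had log2 differences of -0.21 and -0.01 with overlapping groups, and of 0.03 and 0.06 without low library 2.

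**Figure D5:**
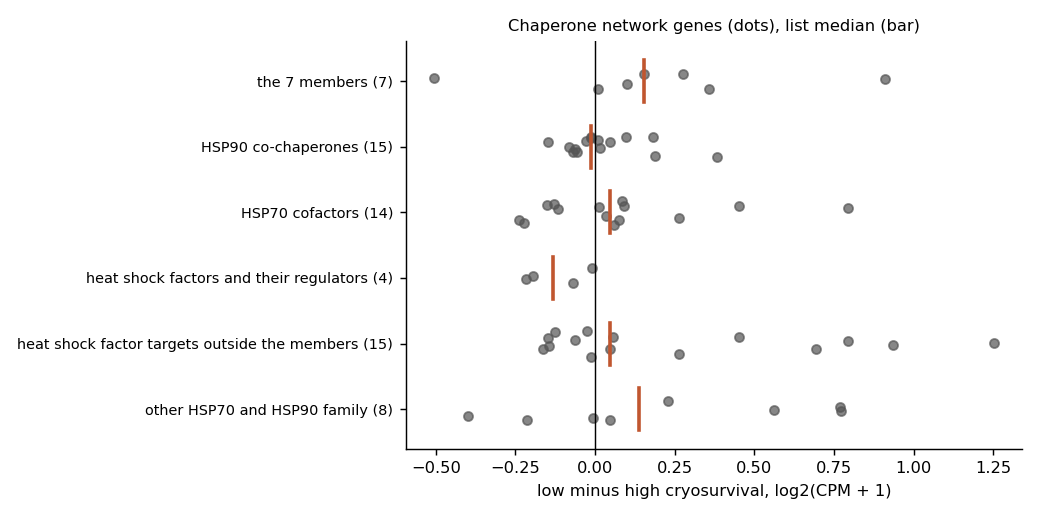
Log2 difference of low minus high cryosurvival on log2(CPM + 1) (x axis) of each measured gene (dots) of the 7 chaperones and of the 5 lists (y axis, number of genes in brackets), with the median of each as a bar. The medians lay between -0.13 and 0.15, and the largest differences were those of CRYAB, HSPB8 and HSPA1A.

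The genes with the most similar profiles were sought among 7090 genes of at least 10 CPM, by the root mean square difference of centred log2(CPM + 1) over the 6 libraries. For HSPA1A these were NFKB2, an NF-kappaB subunit, the stress-responsive repressor BHLHE40, and AMPD2, an AMP deaminase, at 0.07 to 0.08, beside an SD of HSPA1A itself of 0.52. NFKB2 averaged 156 ± 28.4 CPM in low embryos and 89.6 ± 4.48 CPM in high embryos (SD, n = 3 each). The log2 differences of NFKB2, BHLHE40 and AMPD2 were 0.78 to 0.86, each at a limma adjusted p of 0.164. For HSPA2 the most similar genes were CCNT2, SGOL2 and MMS19, at 0.05 to 0.06, each with a log2 difference of -0.47 to -0.45. For HSPH1 they were RNF216, KCTD10 and FERMT1, at 0.06 to 0.07. The closest genes to HSPA8 were MED25, KRR1 and VPS35, all at 0.02 to 0.03, and those to HSPA4 included RAB3GAP1 and CHD2, both at 0.03. HSP90AA1 was closest to ACOT7, ANP32E and POLA2 (0.01 to 0.03), and genes close to HSP90AB1 included MAGT1 and KIAA0020 (0.03 to 0.04). None of the named genes recurred between members. The closest of 7090 genes over 6 values are near by selection, no background distance was computed, and shared regulation was not tested.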

How the data were processed

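Per the labels' protocols, total RNA of bovine blastocysts was purified with a column kit and DNase, with RNA integrity numbers of 7.7 or more. The submitters' processing notes name DESeq 1.12.1, HTSeq 0.5.4p2, Cufflinks 2.1.1, TopHat2 2.0.8, SAMtools 0.1.18 and Bowtie2 2.1.0 without a role. Build, annotation, strand handling and low-value filter were not given in the sources, so reads of overlapping or antisense genes were not told apart. The authors deposited CPM per gene and library on a rescaled library size, with other columns per gene: a log2 fold, p-values and adjusted p-values. The unit was worked out from the values: up to 1000 CPM, each library's values were multiples of its own smallest step, within 0.05 read, in 100% of cases.

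The package limma 3.58.1 (R 4.3.3) was fitted to log2(CPM + 1) of all 9537 genes, with no covariate and Benjamini-Hochberg adjustment, called at an adjusted p of 0.05. All 7 member symbols are in the RefSeq gene table of ARS-UCD2.0, and no coordinates are given because the build of the files is unknown. A pseudocount of 1 understates the change of genes at low CPM. The script was tested on reads simulated with 1 fixed dispersion and no outlying library. It recovered 100% of the 100 genes changed by a log2 of 1 and of the 100 changed by 2, with 14 false calls. With low library 2 apart from the others, that recovery does not carry over to the libraries here. The 2 paralog ratios were compared with exact two-sided permutation tests, and no set test was run. The members and gene lists were chosen with earlier results of these data known. Genes were named by rule: all 7 members; of each list the 2 with the highest mean CPM and the 2 with the smallest limma p; and, for each member, the 3 genes of at least 10 CPM with the most similar profile, some of which are not reported here. Other genes are marked as named after their values were seen. Alternatives were other pseudocounts, a filter at 5 CPM, other scalings, limma-trend, voom on the recovered reads, each library left out, a replicate block, and a length index as covariate. The index subtracts the median log2(CPM + 1) of 42 genes known for short messages from that of 22 known for long ones, lists written from general knowledge after the values were seen. It comes from the same values as the test and leaves 3 residual degrees of freedom.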

Additional observations from a re-analysis of the deposited data

How the results depend on the processing

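All members but HSPA4 kept their sign in all settings run. HSPA1A and HSPA2 were called when low library 2 was left out or the length index was added (0.93 and -0.49). Over the libraries left out in turn, HSPA1A ranged from 0.81 to 1.03, HSPA2 from -0.59 to -0.39 and HSPA4 from -0.087 to 0.14, the members called from 0 to 2, the genes called from 0 to 1300, the median of HSP70 cofactors from 0.0095 to 0.082 that of heat shock factor targets from 0.0042 to 0.13 and that of the other HSP70 and HSP90 family genes from 0.03 (without low library 3) to 0.32 (without low library 2). The log2 ratio difference of HSPA1A to HSPA8 ranged from 0.75 to 0.86 and that of HSP90AA1 to HSP90AB1 from -0.18 to -0.08. HSPA4 was -0.0195 with scaling to the column sum. The genes called were 7 with a pseudocount of 0.25, 7 with a filter at 5 CPM, 5 with median-of-ratios scaling and 1204 with the length index, which called 2 members; the cause was not tested. Between low and high libraries of the same replicate number, the correlations of deviations from the group mean were 0.12, -0.26 and -0.31. Deviations from a mean of 3 libraries are tied to each other, so these values cannot exclude a pairing. The replicate block called 0 genes, with a log2 difference of 0.91 for HSPA1A (limma adjusted p = 0.495). DESeq2, edgeR and a length index from protein lengths were not run. Depth limits HSF4 (29 to 69 reads per library), INHBA (33 to 60) and CRYAB (53 to 206) most among the genes with a test and CPM values above. HSPB8 is outside this ranking, since its CPM and reads are not given here. Over all alternatives the lowest adjusted p was 0.064 for HSPH1, 0.0771 for HSP90AB1, 0.148 for HSPA8, 0.273 for HSP90AA1 and 0.289 for HSPA4.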
